A study of Mus musculus with 2 samples.

Results

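The genes described here are the matrix metalloproteinases (MMP), the ADAMTS proteases, the ADAMTS-like (ADAMTSL) proteins and the tissue inhibitors of metalloproteinases (TIMP). They were taken by symbol from the mRNA-seq table of the tunica muscularis (the muscular coat of the gut) of the jejunum: symbols made of Mmp, Adamts, Adamtsl or Timp and a number, with 1 symbol of this form left out. This gave 47 of the 18159 genes in the table, namely 19 MMP, 19 ADAMTS, 5 ADAMTSL and 4 TIMP genes. The rule uses symbols and no measured value. *Mmp1a*, *Mmp1b* and *Mmp20* were looked for and are not among the symbols of the table.

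The samples were *Dnmt1*-WT and *Dnmt1*-KO mice on a C57BL/6 background at 15 days of age (P15), with 1 library for each genotype. Both carry a Cre-eGFP transgene under the *Myh11* promoter, which is active in smooth muscle cells (SMCs). The strain label of both also names the floxed allele Dnmt1lox/lox, while the study describes *Dnmt1*-WT mice by the transgene alone. *Dnmt1*-KO mice have lost the floxed part of *Dnmt1* in cells that express Cre, and other cells of the wall keep the gene. The free-text description of the *Dnmt1*-WT sample names the knockout, and the sample was assigned by its title and genotype label. RNA came from males and females of each genotype, and how it was combined into a library is not stated. With 1 library per genotype there is no spread between replicates, no test and no p-value, so each difference below compares these libraries and has no replicate check. Pairs of values are given in the order *Dnmt1*-WT, *Dnmt1*-KO throughout, and a ratio is that of *Dnmt1*-KO to *Dnmt1*-WT. *Dnmt1* was at 11.58 and 7.58 FPKM. FPKM are mapped fragments scaled to transcript length and library size, so levels of different genes can be set side by side. Read numbers per gene are not in the table. The study lists total and mapped mRNA reads for each library, with more of both for *Dnmt1*-WT. They were not used here to estimate the depth behind each value.

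MMPs are zinc endopeptidases that cut collagens, elastin, proteoglycans and cell surface proteins. They are made as inactive precursors, and membrane-type MMPs and furin-like convertases activate some of them. ADAMTS proteases are secreted, bind to the matrix and have narrower substrates, such as the amino-terminal propeptides of fibrillar procollagens, the large aggregating proteoglycans and von Willebrand factor. ADAMTSL proteins share the ancillary domains of ADAMTS but have no protease domain, and several of them bind fibrillin microfibrils. TIMPs inhibit MMPs, and TIMP3 also inhibits several ADAM and ADAMTS proteases. In the gut wall these genes serve the turnover of the matrix in which SMCs, fibroblasts, vessels and nerves lie.

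The promoters of 32 of the 47 genes were found by symbol in RefSeq (GRCm38.p6). Each window ran from 250 bases before to 50 bases after a start listed for the gene. Some of these starts, such as those of *Adamts20* and *Mmp11*, lie inside the bounds of the gene in GENCODE M21. The windows differed in their number of CpG dinucleotides, the sites at which DNMT1 maintains methylation. The 6 MMP genes that lie in 1 stretch of chromosome 9 (*Mmp3*, *Mmp8*, *Mmp10*, *Mmp12*, *Mmp13* and *Mmp27*) had between 0 and 4 CpG in the window, with a median of 1.5. The other 26 promoters had a median of 21, with a range from 2 to 46, and the median over 13303 genes of the table was 18. Searched on both strands, the AP-1 motif TGANTCA was found in 3 of the 32 windows (9.38%), against 5.91% of all 13303, and these 3 windows were those of *Mmp3*, *Mmp10* and *Mmp13*. AP-1 is the FOS and JUN factor long known to bind MMP promoters. The TATA motif TATAAA was in 7 of 32 windows (21.9%, against 8.91%), 4 of them in the chromosome 9 group. The GC box GGGCGG was in 21 of 32 (65.6%, against 57.0%), none of them in the chromosome 9 group. The CArG box, the site of SRF, was in none of the 32 and in 1.41% of all windows. These motifs were searched separately, and a match is a run of letters and not a binding site. Methylation was not analysed here. The 250 bases before the start are given for the 3 genes with an AP-1 motif, 5′ to 3′ on the strand of the gene, with the motif in capitals, at -46 in *Mmp3* (chr9:7445572-7445821), -63 in *Mmp10* (chr9:7502092-7502341) and -35 in *Mmp13* (chr9:7272264-7272513), positions being those of the motif's first base, and all 3 genes are on the plus strand.
Mmp3: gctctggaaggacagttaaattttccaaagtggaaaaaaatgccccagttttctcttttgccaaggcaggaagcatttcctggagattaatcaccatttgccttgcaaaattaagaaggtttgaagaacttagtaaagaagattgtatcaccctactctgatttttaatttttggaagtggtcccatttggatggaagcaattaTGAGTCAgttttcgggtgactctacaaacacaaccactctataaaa
Mmp10: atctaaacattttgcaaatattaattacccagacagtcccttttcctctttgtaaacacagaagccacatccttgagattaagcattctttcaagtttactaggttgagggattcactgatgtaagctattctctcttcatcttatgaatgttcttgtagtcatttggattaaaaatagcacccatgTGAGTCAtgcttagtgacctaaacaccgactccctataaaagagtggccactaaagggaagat
Mmp13: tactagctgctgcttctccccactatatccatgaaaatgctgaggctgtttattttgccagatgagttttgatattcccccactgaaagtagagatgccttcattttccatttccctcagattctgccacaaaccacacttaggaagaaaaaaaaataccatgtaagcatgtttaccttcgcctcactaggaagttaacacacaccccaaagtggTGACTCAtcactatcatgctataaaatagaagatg

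The genes with the highest and the lowest ratio among members reaching 5 FPKM, *Adamtsl2* and *Adamtsl3*, had promoters of different base composition. This pair was picked by its ratios, and a link between CpG number and ratio was not tested. The stretch before the start of *Adamtsl2* (chr2:27079129-27079378, plus strand) holds 8 CpG and that of *Adamtsl3* (chr7:82335444-82335693, plus strand) holds 39. They are shown with each CpG in capitals.
Adamtsl2: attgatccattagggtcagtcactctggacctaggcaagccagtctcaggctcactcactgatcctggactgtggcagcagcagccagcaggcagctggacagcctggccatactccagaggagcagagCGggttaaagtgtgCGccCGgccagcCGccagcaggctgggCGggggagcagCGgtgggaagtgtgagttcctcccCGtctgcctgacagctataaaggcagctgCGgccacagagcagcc
Adamtsl3: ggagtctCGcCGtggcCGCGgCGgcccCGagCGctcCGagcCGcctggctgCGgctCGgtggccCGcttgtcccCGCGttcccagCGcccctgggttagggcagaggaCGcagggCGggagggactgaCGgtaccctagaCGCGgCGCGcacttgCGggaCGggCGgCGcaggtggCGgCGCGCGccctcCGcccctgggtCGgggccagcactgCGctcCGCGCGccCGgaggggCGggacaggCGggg

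Of the 47 genes, 45 were above 0 FPKM in both libraries, *Mmp27* was above 0 in the *Dnmt1*-KO library alone, at 0.13 FPKM (5.42% of the genes detected in at least 1 library were so), and *Mmp21* was listed at 0 in both. Levels above 0 ran from 0.03 FPKM for *Mmp12* to 209.37 FPKM for *Timp2* in *Dnmt1*-WT. A ratio of 2 or more was found for 19 of the 45 genes (42.2%), against 11.8% of all 16102 genes above 0 in both libraries. A ratio of 0.5 or less was found for 2 (4.44%), against 4.98% of all genes. The remaining 24 lay between. A ratio above 1 was found for 32 of the 45, against 50.3% of all genes. The median log2 ratio of FPKM + 0.1 over the 46 genes detected in at least 1 library was 0.59, beside 0.02 over all genes. This median of the members was 0.18 when 1 FPKM was added instead. It was 0.08 with at least 1 FPKM in both libraries and 0.07 with at least 5 FPKM in 1 library.

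The count of higher members rested in part on weak genes and on the threshold. With at least 1 FPKM in 1 library, 16 of 38 members had a ratio of 2 or more and 2 a ratio of 0.5 or less, against 9.14% and 3.67% of all genes so filtered. With at least 5 FPKM in 1 library these were 8 and 2 of 27, against 6.08% and 2.93%, a filter added after the data were seen. With at least 1 FPKM in both libraries they were 7 and 2 of 28, against 5.53% and 2.82%. Adding 1 FPKM to every value left 10 and 1 of 46, against 4.88% and 1.69%. At a fold of 1.5 the counts were 24 and 4 of 45, against 19.7% and 12.6%, and at a fold of 3 they were 8 and 1, against 6.43% and 1.72%. In each of these settings the share of members on the higher side was above that of all genes.

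**Figure D1:**
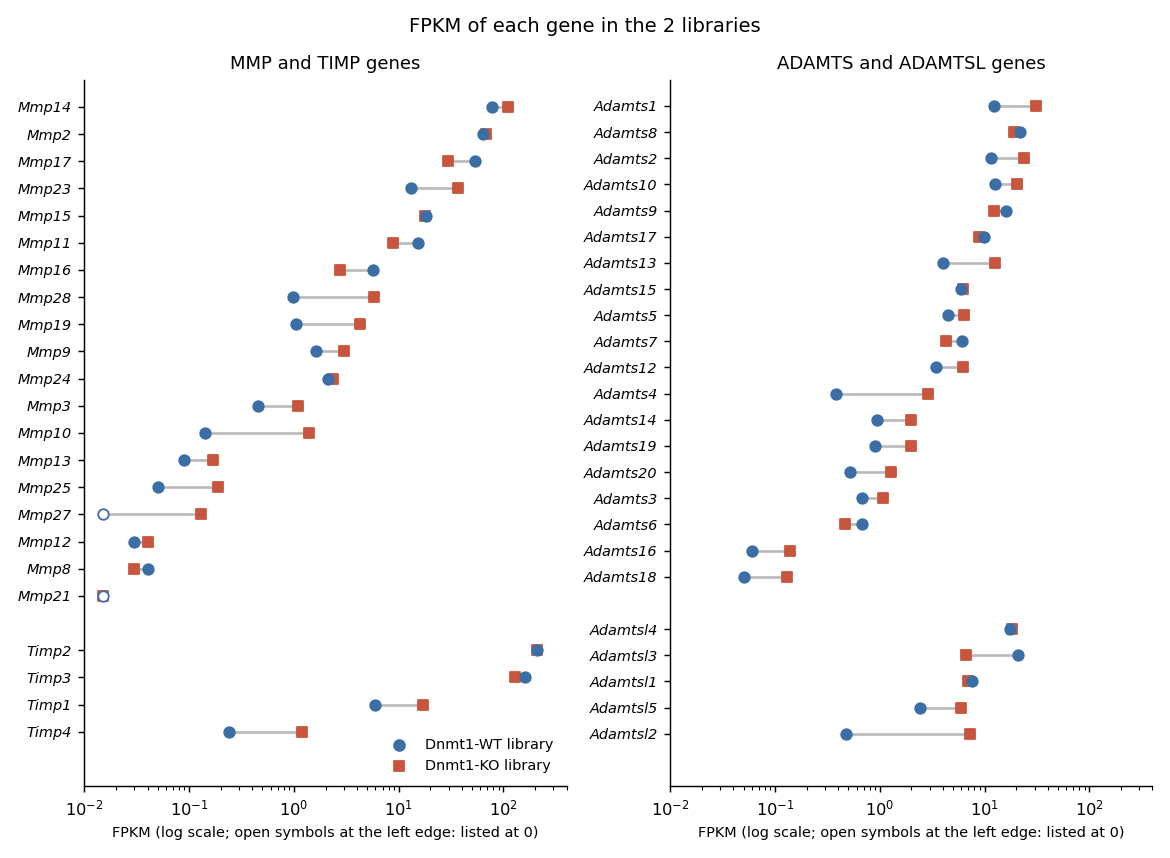
FPKM of each of the 47 genes (horizontal axis, log scale) in the *Dnmt1*-WT library (blue circles) and the *Dnmt1*-KO library (red squares), by family and ordered by level, with open symbols for values listed at 0. *Timp2*, *Timp3*, *Mmp14* and *Mmp2* sit at the right with their symbols close together, while the long lines of *Adamtsl2*, *Mmp10*, *Adamts4* and *Mmp28* start near or below 1 FPKM.

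The large ratios were found mostly among weakly expressed genes, and the abundant members differed less. Of the 12 members with a mean of the libraries below 1 FPKM, 7 had a ratio of 2 or more, against 30.4% of all genes at that level, and none a ratio of 0.5 or less, against 12.9%. Between 1 and 10 FPKM, 8 of 17 did, against 11.6% of all genes, and 1 of 17 had a ratio of 0.5 or less, against 4.18%. At a mean of 10 FPKM or more, 4 of 16 had a ratio of 2 or more, against 4.14% of all genes, and 1 had a ratio of 0.5 or less, against 2.54%. The median ratio went from 2.39 in the lowest band to 1.85 and 1.03 in the others, beside 1.27, 1.0 and 0.98 for all genes. So the share past a ratio of 2 was above that of all genes in each band, while the median of the abundant members was near 1.

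**Figure D2:**
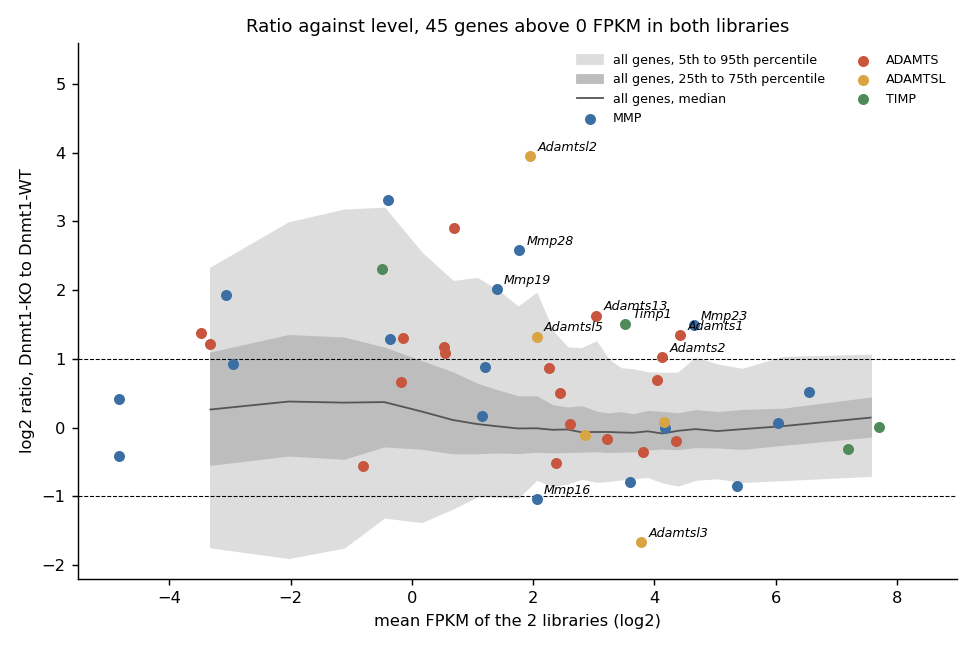
The log2 FPKM ratio (*Dnmt1*-KO over *Dnmt1*-WT, vertical axis) against the mean FPKM of the libraries (horizontal axis, log2) for the 45 genes above 0 in both libraries, coloured by family, over bands for all genes of the same level (pale, 5th to 95th percentile, and dark, the interquartile range) with their median as a line, and dashed lines at ratios of 2 and 0.5. *Adamtsl2*, *Mmp28*, *Adamts13*, *Timp1*, *Mmp23* and *Adamts1* are among the genes above the pale band, and *Adamtsl3* lies farthest below it.

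The inhibitors were the most abundant family. *Timp2*, which inhibits MMPs and helps MMP14 to activate the precursor of MMP2, was at 209.37 and 210.39 FPKM, a ratio of 1.0. *Timp3*, which stays bound to the matrix, was at 161.88 and 130.19 FPKM, a ratio of 0.80. Together they made up 98.4% of the summed TIMP FPKM in *Dnmt1*-WT. The other members were low in the *Dnmt1*-WT library and higher in the *Dnmt1*-KO library. *Timp1*, the soluble and inducible inhibitor, was at 5.93 and 16.89 FPKM, a ratio of 2.85, and its share of the TIMP sum went from 1.57% to 4.71%. *Timp4* was at 0.24 and 1.18 FPKM, a ratio of 4.92 that falls to 1.76 when 1 FPKM is added to both values. *Timp1* (chrX:20870166-20874735), *Timp3* (chr10:86300372-86349506) and *Timp4* (chr6:115241892-115252205), all protein coding, each lie within the bounds of a synapsin gene in GENCODE M21 on GRCm38. Exons of *Timp3* and *Timp4* overlap those of *Syn3* and *Syn2* on the opposite strand, and whether reads were counted by strand is not stated. *Syn3* was at 4.3 and 3.63 FPKM and *Syn2* at 24.82 and 27.91 FPKM, so the level of *Timp4* is below that of the gene it overlaps.

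Summed over the family, TIMP transcripts went from 377.42 to 358.65 FPKM and MMP transcripts from 253.49 to 292.96 FPKM. The ratio of the TIMP sum to the MMP sum was 1.49 and 1.22. Set against MMP and ADAMTS proteases together, it was 1.03 and 0.792. The ADAMTS sum was the one with the largest ratio, from 112.15 to 160.12 FPKM or 1.43, and the ADAMTSL sum went from 48.79 to 45.24 FPKM. These are sums of transcript levels and say nothing of protein or of activity.

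**Figure D3:**
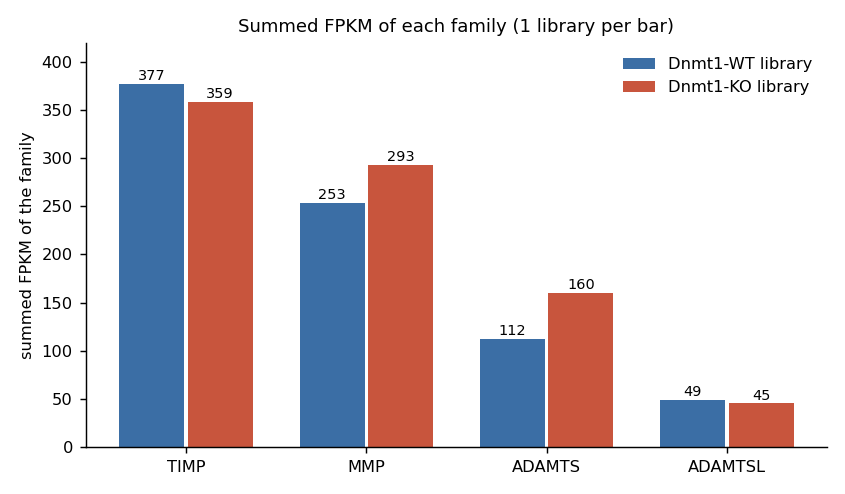
Summed FPKM of the TIMP, MMP, ADAMTS and ADAMTSL genes (vertical axis) in the *Dnmt1*-WT library (blue) and the *Dnmt1*-KO library (red), with 1 library per bar and no error bar. The TIMP bars are the tallest in both libraries and the *Dnmt1*-KO bar is taller than the *Dnmt1*-WT bar for MMP and ADAMTS.

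Among membrane-type MMPs, which are anchored at the cell surface, the most abundant members went in different directions. *Mmp14*, the collagenase and activator of MMP2 at chr14:54431612-54445364, was the most abundant MMP in both libraries, at 77.27 and 110.73 FPKM, a ratio of 1.43. *Mmp17*, which has a lipid anchor, was at 53.21 and 29.44 FPKM, a ratio of 0.55. *Mmp16*, with a transmembrane anchor, was at 5.62 and 2.73 FPKM, a ratio of 0.49 at the edge of the threshold. *Mmp15* did not move with either of them and was at 18.06 and 17.98 FPKM. *Mmp24* was at 2.09 and 2.35 FPKM, and *Mmp25*, the leukocyte enzyme, at 0.05 and 0.19 FPKM. Thus 1 of the 6, the barely detected *Mmp25*, was at a ratio of 2 or more, 1 at 0.5 or less and 4 between, beside 11.8% and 4.98% of all genes for the first and the second, and their sum was 156.3 and 163.42 FPKM. Exons of *Mmp24* overlap those of *BC029722* on the opposite strand, at 26.25 and 26.6 FPKM.

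The gelatinases cut denatured collagen and basement membrane collagen, and both had ratios below 2. *Mmp2*, second in abundance among MMPs, was at 64.36 and 67.79 FPKM, a ratio of 1.05. *Mmp9*, the gelatinase of neutrophils and macrophages, was at 1.62 and 2.99 FPKM, a ratio of 1.85. The collagenases were barely detected, with *Mmp13* at 0.09 and 0.17 FPKM and *Mmp8*, the neutrophil collagenase, at 0.04 and 0.03 FPKM. The lowest value above 0 in either library is 0.03 FPKM, so ratios of such genes say little.

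The stromelysins *Mmp3* and *Mmp10* were near or below 1 FPKM and higher in the *Dnmt1*-KO library. *Mmp3* was at 0.45 and 1.1 FPKM, a ratio of 2.44, and *Mmp10* at 0.14 and 1.39 FPKM, a ratio of 9.93. Adding 1 FPKM to each value brought these ratios to 1.45 and 2.10. *Mmp11*, a stromelysin by name that furin activates inside the cell, was more abundant and went the other way, from 15.3 to 8.83 FPKM, a ratio of 0.58. Exons of *Mmp11* overlap those of *Chchd10* on the opposite strand, which was at 170.71 and 130.2 FPKM. The 6 MMP genes of the chromosome 9 cluster together held 0.75 and 2.86 FPKM, or less than the single gene *Mmp9* in each. *Mmp12*, the macrophage elastase of this cluster, was at 0.03 and 0.04 FPKM.

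Of the 6 MMPs outside these classes, 4 were above 0 in both libraries. Of these 4, 3 had a ratio of 2 or more, beside 11.8% of all genes. These 3 reached 4 FPKM or more in the *Dnmt1*-KO library. *Mmp23*, a short MMP anchored by its amino terminus, at chr4:155650655-155653384, was at 13.13 and 36.97 FPKM, a ratio of 2.82. *Mmp28*, or epilysin, was at 0.98 and 5.87 FPKM, a ratio of 5.99. *Mmp19* was at 1.05 and 4.23 FPKM, a ratio of 4.03. With 1 FPKM added to each value the ratios of *Mmp28* and *Mmp19* were 3.47 and 2.55. Both *Mmp28* and *Mmp19* share exon sequence with a gene on the opposite strand. *1700020L24Rik*, which overlaps *Mmp28*, was itself at 1.23 and 5.62 FPKM, and without strand the reads of these genes cannot be told apart. *Tmem198b*, which overlaps *Mmp19*, was at 10.73 and 12.86 FPKM.

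Among ADAMTS genes, 9 of 19 had a ratio of 2 or more and none a ratio of 0.5 or less, beside 11.8% and 4.98% of all genes. Of the procollagen N-proteinases, which trim the amino-terminal propeptides of fibrillar collagens, 2 of 3 had a ratio of 2 or more. *Adamts2*, the main enzyme of this group at chr11:50602084-50807573, was at 11.56 and 23.51 FPKM, a ratio of 2.03. *Adamts14* was at 0.93 and 1.98 FPKM, a ratio of 2.13, and *Adamts3* at 0.68 and 1.08 FPKM, a ratio of 1.59. The ratios of *Adamts2* and *Adamts14* lie close to the threshold, and dividing each library by its FPKM sum brings both below 2.

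The proteoglycan-cleaving ADAMTS were divided, with 3 of 7 at a ratio of 2 or more, beside 11.8% of all genes. *Adamts1*, a versican and aggrecan protease and the most abundant ADAMTS in the *Dnmt1*-KO library, was at 12.19 and 30.77 FPKM, a ratio of 2.52. *Adamts4*, an aggrecanase, was at 0.38 and 2.86 FPKM, a ratio of 7.53 that falls to 2.8 when 1 FPKM is added to both values. *Adamts20* was at 0.52 and 1.28 FPKM. The most abundant ADAMTS in the *Dnmt1*-WT library were not among them. *Adamts8* was at 21.83 and 18.96 FPKM and *Adamts9* at 15.9 and 12.37 FPKM, ratios of 0.87 and 0.78. *Adamts5*, the other main aggrecanase, was at 4.47 and 6.38 FPKM, and *Adamts15* at 5.97 and 6.17 FPKM. The order at the top of the family therefore differed between the libraries, from *Adamts8* and *Adamts9* in *Dnmt1*-WT to *Adamts1* and *Adamts2* in *Dnmt1*-KO.

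*Adamts13*, the protease that cuts von Willebrand factor, was at 4.04 and 12.47 FPKM, a ratio of 3.09. *Vwf*, the gene of its substrate, is made by endothelium and was at 3.24 and 16.48 FPKM, a ratio of 5.09. *Adamts7* and *Adamts12*, which cut cartilage oligomeric matrix protein, went in opposite directions, *Adamts7* from 6.11 to 4.26 FPKM and *Adamts12* from 3.41 to 6.17 FPKM, and neither reached a ratio of 2 or 0.5. Exons of *Adamts7* overlap those of *Tbc1d2b* on the opposite strand, at 14.31 and 12.64 FPKM. *Adamts10*, which acts on fibrillin microfibrils, was at 12.64 and 20.35 FPKM, a ratio of 1.61, and its relative *Adamts17* at 9.84 and 8.78 FPKM. *Adamts19* was at 0.89 and 2.0 FPKM, a ratio of 2.25. *Adamts16* and *Adamts18* stayed below 0.2 FPKM in both libraries, and *Adamts6* was at 0.68 and 0.46 FPKM.

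The ADAMTSL genes held the widest spread of all families. *Adamtsl2*, which encodes a partner of fibrillin and of a latent TGF-beta binding protein and lies at chr2:27079379-27108981, was at 0.47 and 7.27 FPKM. Its ratio was 15.47, and 5.63 when 1 FPKM was added to both values. *Adamtsl3*, at chr7:82335694-82614450, was at 20.93 and 6.6 FPKM, 3.17-fold lower in the *Dnmt1*-KO library. No other member of the 4 families had a ratio below 0.49. *Adamtsl5* was at 2.39 and 5.95 FPKM, a ratio of 2.49. *Adamtsl4*, a fibrillin-binding protein of the eye and other tissues, was at 17.5 and 18.45 FPKM and *Adamtsl1* at 7.5 and 6.97 FPKM, so these were close to equal in both libraries. With *Adamtsl3* lower, *Adamtsl4* replaced it as the most abundant member, at 40.8% of the summed ADAMTSL FPKM in the *Dnmt1*-KO library.

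**Figure D4:**
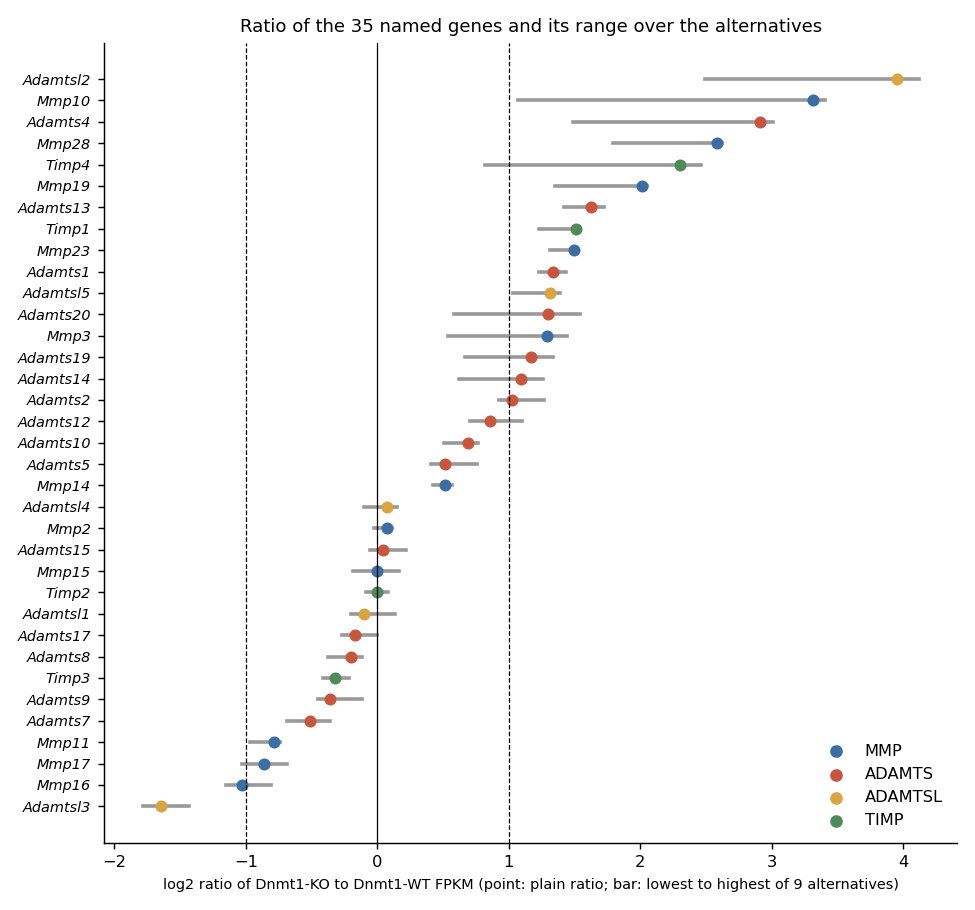
The log2 FPKM ratio (*Dnmt1*-KO over *Dnmt1*-WT, horizontal axis) of 35 members, those at 5 FPKM or more in 1 library and those at 1 FPKM or more past the threshold, coloured by family. Points give the plain ratio, bars the lowest to highest ratio under 9 alternatives, and dashed lines ratios of 2 and 0.5; *Adamtsl2*, *Adamts4*, *Mmp28* and *Mmp19* stay to the right of the dashed line along their whole bar, *Adamtsl3* to the left of the other, and the bar of *Mmp16* crosses it.

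Apart from the chromosome 9 MMP genes, 3 pairs of members lay within 100 kb of each other. *Adamts13* and *Adamtsl2* lie on the same strand of chromosome 2 with 69750 bases between them, and both had ratios of 3.09 or more. *Cacfd1* and *Slc2a6*, the genes of the table between them, were at 20.92 and 18.6 FPKM and at 1.22 and 1.27 FPKM, so the stretch as a whole did not differ alike. *Adamts1* and *Adamts5*, 53059 bases apart on chromosome 16, had ratios of 2.52 and 1.43. *Adamts15* and *Adamts8*, on opposite strands of chromosome 9 and 20109 bases apart, had ratios of 1.03 and 0.87.

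Genes that activate, inhibit or form the substrates of these proteases were examined through lists written from general knowledge. Of 10 activators and proconvertases, 9 were above 0 in both libraries. A ratio of 2 or more was found for 6 of these 9, beside 11.8% of all genes, and a ratio of 0.5 or less for none. *Furin*, the convertase of membrane-type MMPs and *Mmp11*, was at 36.06 and 31.09 FPKM and *Plat*, the tissue plasminogen activator, at 22.92 and 22.41 FPKM. The members with high ratios were of low level, such as the urokinase gene *Plau*, at 2.36 and 6.79 FPKM, its receptor gene *Plaur*, at 1.55 and 7.65 FPKM, and the convertase gene *Pcsk5*, at 1.62 and 7.94 FPKM. *St14* and *Prss8*, proteases of epithelia, were at 0.72 and 2.52 FPKM and at 0.33 and 1.11 FPKM.

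Of 9 other inhibitors and regulators, 3 had a ratio of 2 or more, beside 11.8% of all genes. One of them was *Tfpi2*, a protease inhibitor of the matrix, at 0.22 and 1.01 FPKM. *Reck*, a membrane-bound MMP inhibitor, was at 23.32 and 19.29 FPKM and *Bsg*, an inducer of MMPs, at 358.86 and 332.63 FPKM. Other abundant regulators were higher in the *Dnmt1*-KO library, such as *Serpine2*, at 54.29 and 96.27 FPKM (ratio 1.77), and *Thbs1*, at 31.94 and 51.11 FPKM (ratio 1.6). Among 8 ADAM sheddases, 2 had a ratio of 2 or more, *Adam12* (1.27 and 6.85 FPKM) and *Adam8* (0.46 and 1.2 FPKM), and 1 a ratio of 0.5 or less, *Adam33*, at 30.94 and 13.55 FPKM, beside 11.8% and 4.98% of all genes. *Adam10* and *Adam17*, the broad sheddases, were at 26.1 and 22.95 FPKM and at 9.24 and 8.77 FPKM.

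The substrates were higher in the *Dnmt1*-KO library throughout, mostly by less than a ratio of 2. All 20 substrate and matrix genes above 0 in both libraries had a ratio above 1, beside 50.3% of all genes, 5 of them had 2 or more, beside 11.8% of all genes. The median log2 ratio of FPKM + 0.1 was 0.60 over the 21 genes detected in at least 1 library. *Col3a1* was at 1148.06 and 1552.41 FPKM, a ratio of 1.35, and *Col1a1*, whose propeptide ADAMTS2 removes, at 700.41 and 1517.78 FPKM, a ratio of 2.17. *Eln*, the elastin gene, had a ratio of 3.70, from 259.87 to 960.54 FPKM. The proteoglycan genes *Bgn* and *Vcan* were at 112.17 and 297.26 FPKM and at 2.78 and 6.18 FPKM, ratios of 2.65 and 2.22. *Fbn1*, the fibrillin gene, was at 59.72 and 95.58 FPKM, a ratio of 1.60.

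Markers of several cell types differed between the libraries in the same direction as the proteases with high ratios. Of all genes, 11.8% had a ratio of 2 or more and 4.98% of 0.5 or less. In these bulk libraries, fewer cells of a type and less RNA per cell cannot be told apart. The study also sorted cells at P15. It reported a larger share of immune cells and a smaller share of SMCs in *Dnmt1*-KO tissue, and lower *Myh11* and *Srf* in sorted *Dnmt1*-KO SMCs. SMC markers were abundant in both libraries, and all 12 were lower in the *Dnmt1*-KO library, 4 of them at a ratio of 0.5 or less, with a summed level of 19944 and 13582 FPKM. *Adamtsl3*, *Mmp17*, *Mmp16* and *Mmp11* were lower alongside them. All 8 leukocyte markers had a ratio of 2 or more (summed 41.01 and 132.84 FPKM), as did 10 of 11 macrophage markers (151.13 and 524.19 FPKM). Of the neutrophil markers, 4 were above 0 in both libraries and 2 of these had a ratio of 2 or more. Over all 7 neutrophil markers of the table the sum was 7.63 and 9.32 FPKM, with 2.0 FPKM of the latter from *S100a8*. *S100a8*, *Ltf* and *Mpo* were listed at 0 in *Dnmt1*-WT, and *Mpo* in both.

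Among endothelial markers, 7 of 9 had a ratio of 2 or more (75.83 and 187.97 FPKM), which is the group that makes *Vwf*. For adipocytes this was so for all 9 markers above 0 in both libraries (125.85 and 1282 FPKM in all 10), with *Lep* listed at 0 in the *Dnmt1*-WT library. Of 10 enterocyte markers, 5 had a ratio of 2 or more and 1 of 0.5 or less (337.18 and 746.75 FPKM), so mucosal RNA was present in both libraries. Of 10 fibroblast markers, which share *Dcn* and *Lum* with the substrates, 3 had a ratio of 2 or more (1215 and 1623 FPKM), and so did 0 of 6 mesothelial markers (370.46 and 473.25 FPKM), 0 of 4 markers of interstitial cells of Cajal (166.94 and 136.77 FPKM) and 1 of 10 of enteric neurons and glia (409.56 and 492.33 FPKM). The part of these differences in the ratios of the protease and inhibitor genes was not tested.

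**Figure D5:**
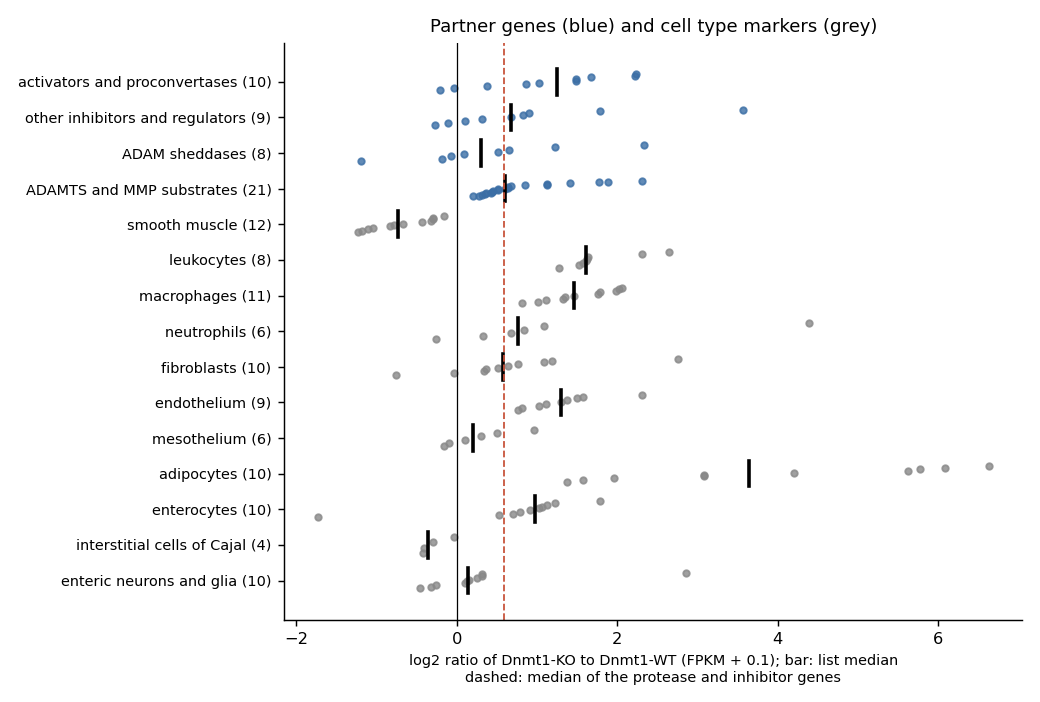
The log2 ratio of FPKM + 0.1 (*Dnmt1*-KO over *Dnmt1*-WT, horizontal axis) of each partner gene (blue) and each cell type marker (grey), with the number of detected genes in brackets, list medians as black bars and the median of the protease and inhibitor genes, 0.59, as a dashed line. The SMC markers lie to the left of 0 and the adipocyte markers farthest to the right, with a median of 3.64. The substrate list has a median of 0.60.

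Transcript length moved with the ratio over the whole table. In 10 equal bins of length, the median log2 ratio (over genes at 1 FPKM or more in both) went from 0.28 in the shortest to -0.24 in the longest. The median transcript length of the ADAMTS genes was 5379 bases, against 3290.5 over the genes above 0 in both libraries, and *Timp1*, with 883 bases, was the shortest member. Centred on length, the ratio of *Timp1* was 2.35 and that of *Adamts2* 2.41, and 20 of 45 members had a ratio of 2 or more and 1 a ratio of 0.5 or less, against 11.4% and 4.68% of all genes.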

How the data were processed

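RNA of jejunal tunica muscularis was sequenced as 1 mRNA library for *Dnmt1*-WT and 1 for *Dnmt1*-KO after TruSeq RNA preparation. The values deposited by the authors are FPKM per gene symbol, written with 2 decimals. TopHat 1.4.1, Cufflinks 2.0.2 and the build mm10 are named in the submitters' processing notes, without their roles, and the annotation and strand setting are not given in the sources used here. The deposited table also holds the number of transcript variants per gene and library, and the authors' ratios, which were not used. The sums were 429698 FPKM for *Dnmt1*-WT and 460845 FPKM for *Dnmt1*-KO. Recovering read numbers from the FPKM was not attempted, because low values keep only 1 or 2 digits after this rounding, so no interval was computed.

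Samples were grouped by title and genotype label. The members and the gene lists were chosen with earlier results of these data known. Ratios are plain ratios of FPKM for genes above 0 in both libraries, and 2 or more, or 0.5 or less, was counted. Medians of lists used log2 of FPKM + 0.1. The rule for named genes took members with at least 5 FPKM in 1 library, members with at least 1 FPKM past the threshold and, of other lists, up to 4 abundant genes and genes past the threshold with at least 1 FPKM. Weaker members, *Adam17*, *Reck*, *Thbs1* and *Fbn1* were named beyond it, for their role, after their values were seen. Positions, overlaps and the longest transcript of a gene came from GENCODE M21 (GRCm38), which gave a length for all 47 members and 98.9% of symbols, with RefSeq synonyms. For promoters, the first window listed for a gene was used. Alternatives were 5 scalings, centring on length or GC in 10 bins, pseudocounts, filters and folds of 1.5 and 3, and a filter at 5 FPKM was added after the data were seen. Values of a few genes are not reported here. The counting was tested on simulated data. Python 3.11.15, numpy 2.4.6, pandas 2.3.3 and matplotlib 3.10.9 were used.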

Additional observations from a re-analysis of the deposited data

How the results depend on the processing

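With 1 library per genotype no library could be left out. No paired analysis was possible because each genotype has 1 library. An alternative is called a shift where it moved a count or a ratio of sums by more than 1.5 times, a median by more than 0.2, or a value across no change. The 19 members at a ratio of 2 or more numbered between 17 and 20 under each scaling and centring (10.4% to 12.1% of all genes), but 7 of 28 with at least 1 FPKM required in both libraries (5.53% of all genes), 8 of 27 with 5 FPKM required in 1 library (6.08%), 10 of 46 with 1 FPKM added (4.88%) and 8 of 45 at a fold of 3 (6.43%). The 2 members at 0.5 or less became 1 with 1 FPKM added, 1 at a fold of 3, 1 after length centring and 4 at a fold of 1.5. The median log2 ratio of 0.59 fell to 0.18 with 1 FPKM added, to 0.08 with at least 1 FPKM in both libraries and to 0.07 with 5 FPKM in 1 library, and lay between 0.52 and 0.77 otherwise. A requirement of a minimum in both libraries takes out genes that are low in 1 of them by its construction. The ratio of summed ADAMTSL FPKM went from 0.927 to 1.023 after length centring, and the other family sums kept their direction in all alternatives run. Of the 35 named genes, 18 were past the threshold, all 18 kept their direction under the 9 alternatives and 11 stayed past it in every one. The 7 that did not were *Adamts2*, *Adamts14*, *Adamts19*, *Adamts20*, *Mmp3*, *Mmp16* and *Timp4*. *Adamts12* (2.14 after length centring) and *Mmp17* (0.49 after GC centring) passed it in 1 alternative each. *Timp2*, *Mmp2*, *Mmp15*, *Adamts15*, *Adamts17*, *Adamtsl1* and *Adamtsl4*, with ratios between 0.89 and 1.05, changed direction in at least 1 alternative. Depth per gene was not estimated, and values below 1 FPKM carry the least weight.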

Other observations

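The deposited table gives the number of transcript variants found for each gene. It was the same in both libraries for 41 of the 47 genes, higher in the *Dnmt1*-KO library for 5 and lower for 1. *Mmp28* had 1 variant in *Dnmt1*-WT and 3 in *Dnmt1*-KO, *Mmp19* and *Adamts4* 1 and 2, *Adamts9* 3 and 4, *Mmp27* 0 and 1, and *Adamts17* 3 and 2. Of all genes of the table, 12470 had the same number, 2964 a higher and 2725 a lower one in the *Dnmt1*-KO library. The variants are not named in the table.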
